A study of Mus musculus with 12 samples.

Results

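A panel of 35 interferon-stimulated genes and their regulators was followed across 12 RNA-seq libraries of mouse left ventricle. The genes were listed by symbol, with earlier results of these data known, and all 35 were found among the 49492 rows of the deposited count table. All 35 also passed the filter on low counts, which kept 15542 genes for testing. The libraries fall into 4 groups of 3 that cross genotype with treatment. WT_NS and WT_TAC are wild type, Alox5ko_NS and Alox5ko_TAC are knockouts of Alox5, the gene of arachidonate 5-lipoxygenase. TAC is transverse aortic constriction, surgery that narrows the aorta and puts the left ventricle under pressure overload. NS is left unexplained in the labels, and WT_NS and Alox5ko_NS are named here as labelled. The series' design text speaks of a mouse with a cardiac deficiency of Alox5. The promoter or Cre behind that deficiency, and the strain, sex, age, control allele and time after surgery, are not given in the sources used here. Nor do the labels say that the 3 libraries of a group come from separate animals, and the p-values then measure only the spread between libraries, which may be technical.

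Interferons are secreted proteins that bind receptors on neighbouring cells and activate JAK kinases. Type I interferon leads to a complex with STAT2 and IRF9 that binds the interferon-stimulated response element (ISRE). Interferon gamma acts through another element, the gamma-activated site (GAS). The genes so induced sense viral RNA, block its translation, tag proteins with the ubiquitin-like ISG15 or load peptides on MHC class I. Many of them also have a basal level in tissue without infection, in heart muscle cells as well as in resident macrophages and endothelium. In bulk RNA of a whole ventricle, fewer cells of a type and less RNA per cell cannot be told apart.

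Library totals were 20889431 to 27311196 counts. Alox5 was at 9.56 to 13.9 CPM (counts set to a common library size) in the 6 wild-type libraries and at 0.934 to 1.46 CPM in the 6 knockout libraries. It fell by 3.40 on the log2 scale in Alox5ko_NS against WT_NS (edgeR adjusted p = 1.8e-09) and its log2 fold change was -3.28 in Alox5ko_TAC against WT_TAC (adjusted p = 5.37e-09). Heart muscle markers summed to 149538 to 179765 CPM in every library, and atrial markers to 1.35 to 92.1 CPM. Heart muscle markers were thus high in all 12 libraries, and atrial markers varied between them. The sum of heart muscle markers does not tell the chambers of the heart apart.

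The panel was expressed at a basal level in all 4 groups. Between genes, levels are compared as RPKM, which divides by gene length. By the median of the 12 libraries, B2m, the light chain of MHC class I, was highest at 47.8 RPKM. The guanylate-binding protein gene Gbp3 followed at 10.6 RPKM, then Ifit3 at 7.52, the virus tether Bst2 at 7.48 and Isg15 at 5.66 RPKM. Another 17 genes lay between 1 and 5 RPKM and 13 under 1 RPKM, the lowest being Mx2 at 0.379 RPKM and the RNA sensor gene Dhx58 at 0.384 RPKM. Total counts per gene over the 12 libraries ran from 342 for Dhx58 to 10845 for B2m, so the low genes carry the larger counting error. Within a gene, the highest library was 1.22 times the lowest for Eif2ak2 and 3.43 times the lowest for Oas1a, with a median of 1.82 over the 35 genes. The level of the panel thus spanned far more between genes than between libraries of any 1 gene.

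**Figure D1:**
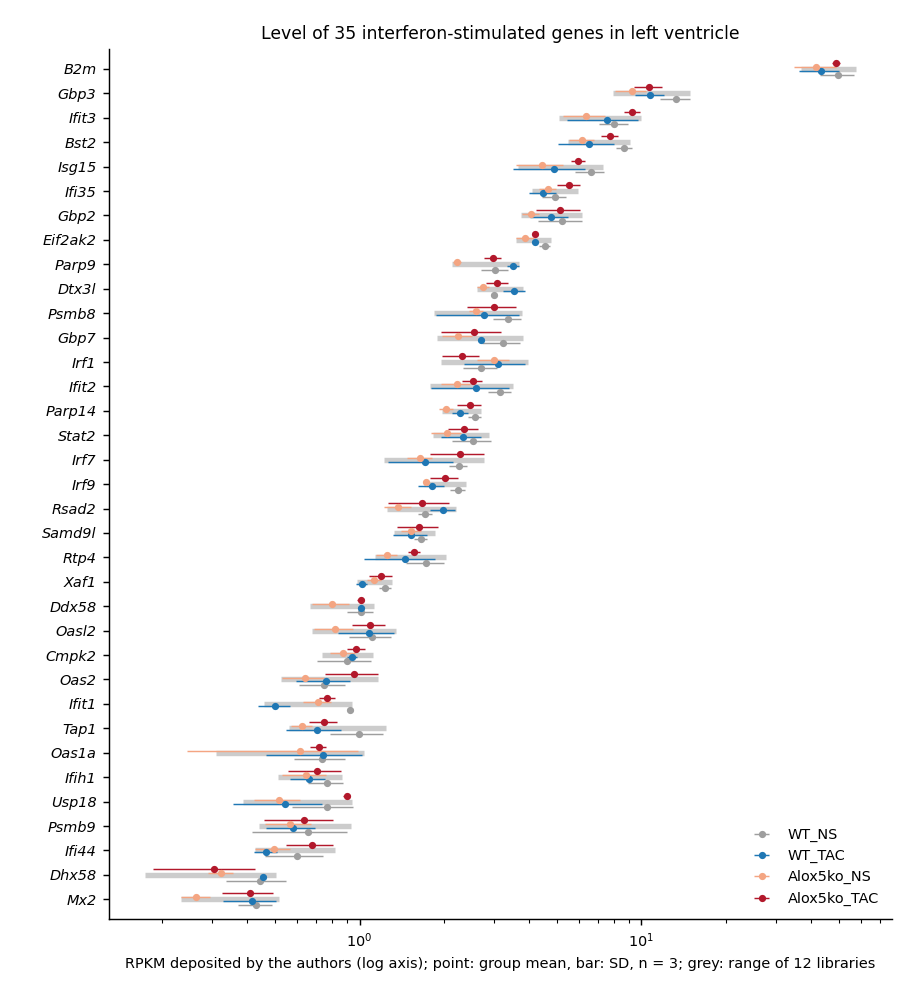
Deposited RPKM (log axis) of the 35 interferon-stimulated genes, ordered by their median over 12 libraries. Points are group means, bars the SD of 3 libraries, and grey bands the range of all 12; B2m stands alone at the top with a median of 47.8 RPKM and Mx2 is lowest at 0.379 RPKM.

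Promoters are shown for 6 members because the panel is defined by its regulation. Most members lay on the same side of 0 within each of the comparisons that follow, and whether a motif goes with that side was not tested. RefSeq promoter windows, 250 bases before to 50 after a start site in GRCm38.p6, were matched by symbol for 28 of the 35 genes. The ISRE core was searched as GAAANNGAAA and the GAS as TTCNNNGAA, on both strands. An ISRE core lay in the window of 14 of the 28 genes, against 3.99% of all 27025 genes with a window. A GAS lay in 8 of the 28, against 9.55% of all genes, and the motifs overlapped each other in 1 window of the panel, that of Bst2. By window instead of by gene, the shares were 3.44% and 8.3% of 32851 windows. A match is a description of the letters, not of binding, and a window without one says only that these letters are not in it.

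The sequences below are the 160 bases before the start site, 5′ to 3′ on the strand of the gene, with the matches in capitals. They are the ISRE matches of the Ifit1 (chr19:34640729-34640888, plus strand), Ifit3 (chr19:34583369-34583528, plus), Isg15 (chr4:156200819-156200978, minus), Bst2 (chr8:71537473-71537632, minus) and Gbp3 (chr3:142559884-142560043, plus) promoters and the GAS match of Irf1 (chr11:53769854-53770013, plus).
Ifit1: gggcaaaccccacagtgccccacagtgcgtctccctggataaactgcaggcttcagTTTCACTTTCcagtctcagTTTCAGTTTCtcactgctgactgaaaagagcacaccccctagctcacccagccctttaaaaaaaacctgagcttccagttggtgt
Ifit3: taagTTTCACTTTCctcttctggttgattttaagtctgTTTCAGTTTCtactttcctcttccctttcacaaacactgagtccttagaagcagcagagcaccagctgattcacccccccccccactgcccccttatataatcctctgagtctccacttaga
Isg15: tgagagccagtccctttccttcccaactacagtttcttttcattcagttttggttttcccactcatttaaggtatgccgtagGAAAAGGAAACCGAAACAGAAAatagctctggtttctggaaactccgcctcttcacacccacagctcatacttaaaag
Bst2: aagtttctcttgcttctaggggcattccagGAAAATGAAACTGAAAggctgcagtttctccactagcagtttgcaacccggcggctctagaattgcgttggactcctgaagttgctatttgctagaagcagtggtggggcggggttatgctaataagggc
Gbp3: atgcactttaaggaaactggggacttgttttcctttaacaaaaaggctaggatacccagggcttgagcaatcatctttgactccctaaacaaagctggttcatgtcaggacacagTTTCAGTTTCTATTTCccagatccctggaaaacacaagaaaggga
Irf1: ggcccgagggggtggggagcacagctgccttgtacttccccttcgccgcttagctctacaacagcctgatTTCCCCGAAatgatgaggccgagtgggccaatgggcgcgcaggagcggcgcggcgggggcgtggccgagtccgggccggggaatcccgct
Ifit1 and Ifit3 each held 2 separate ISRE cores, which start 104 and 85 bases before the start site of Ifit1 and 156 and 122 bases before that of Ifit3. In Isg15, 3 overlapping matches that start 78, 72 and 66 bases before the start site form 1 run. Bst2 and Gbp3 each held 2 overlapping matches. The Irf1 window had a GAS that starts 90 bases before the start site and no ISRE core.

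**Figure D2:**
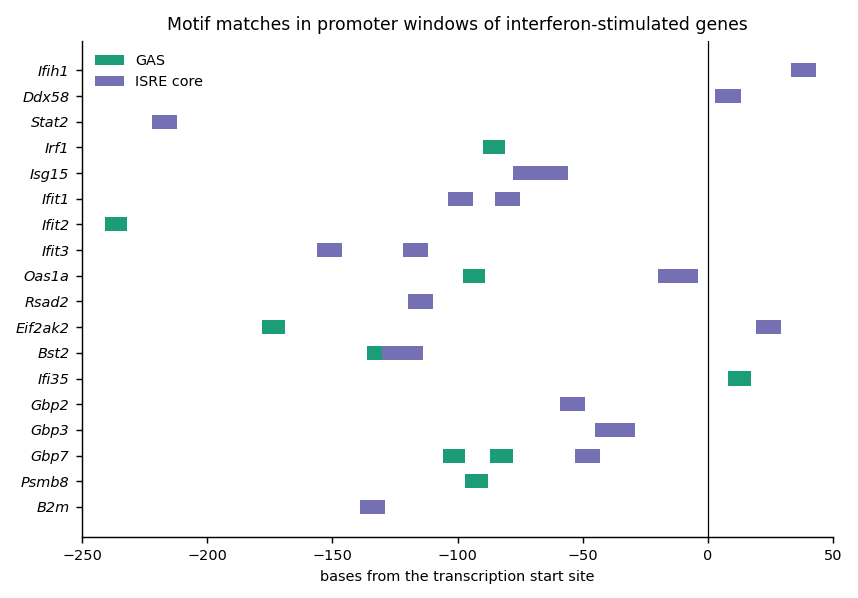
Position of each motif match in the promoter windows, in bases from the transcription start site, for the 18 matched genes of the panel that hold a match. Purple bars are ISRE cores and green bars GAS matches; where they overlap, in Bst2, purple is drawn on top.

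Upstream of the panel, interferon messages themselves were not detectable at this depth. All 20 listed interferon ligand genes (type I, gamma and lambda) had 0 counts in all 12 libraries. A count of 0 allows up to 3 counts, which is 0.110 to 0.144 CPM in a single library and 0.0109 CPM over the 276136858 counts of all libraries, for counting error only. Reads of near-identical Ifna copies may not be assigned to either copy. The receptors and their kinases were present: averaged over the 12 libraries, Ifngr2 was at 25.6 RPKM, Jak1 at 13.6, Ifnar2 at 5.55 and Ifnar1 at 1.71 RPKM. Of 11 tested genes of receptors, kinases and signal transducers, 0 passed edgeR's quasi-likelihood test in any of the 5 comparisons. Over all genes, 0.0% to 1.34% passed in a comparison.

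The first question is what TAC did to the panel in wild-type left ventricle. Only Ifit1, which binds viral RNA that lacks a host cap, passed the test, and it fell. Thus 1 of 35 genes was called, in the lower direction, where 0.29% of all tested genes were called lower and 0.766% in either direction. The fitted log2 fold change was below 0 for 26 of the 35 genes (49.1% of all genes) and its median was -0.14, against 0.00 over all genes. At an unadjusted p under 0.05 there were 9 members, against 11.9% of all genes; 7 were lower (5.26%) and 2 higher (6.61%). This count went from 3 to 14 as single libraries were left out. It was 3 without WT_TAC 2 or WT_TAC 3, 6 without WT_NS 1 or WT_NS 3 and 14 without WT_TAC 1. Over all genes it was 1844 of 15542 with all libraries. It was 1761 of 15822 genes without WT_TAC 2, 1655 of 15836 without WT_TAC 3 and 1681 of 15812 without WT_TAC 1. Without WT_NS 1 it was 1627 of 15816 genes, and without WT_NS 3 it was 1369 of 15834. Groups did not overlap for 6 members lower in WT_TAC (8.81% of all genes) and 3 higher (10.1%).

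The second question is the same for the knockout. Here 0 of 35 members passed, where 1.34% of all genes were called. The fitted values were on the other side: 33 of 35 were above 0 (49.3% of all genes), with a median of 0.20 against 0.00 over all genes, and the exceptions were Dhx58 and Irf1. An unadjusted p under 0.05 was found for 11 members, against 14.5% of all genes; 10 were higher (7.31%) and 1 was lower (7.18%). Without Alox5ko_TAC 2 the count was 5 of 35 members, where it was 2403 of 15829 genes. Without Alox5ko_NS 1 it was 6 of 35 members and 2014 of 15838 genes, against 2252 of 15542 genes with all libraries. DESeq2 called 1 member, Parp9 (adjusted p = 0.0449), and gave no adjusted p for 5. The groups did not overlap for 9 members higher in Alox5ko_TAC (8.98% of all genes) and for 1 lower, Irf1 (9.02%).

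The difference between the responses, knockout minus wild type, was tested as an interaction term. By edgeR 0 of 35 members passed, as did 0 of all 15542 genes (0.0% called). DESeq2 called 1 gene, which was no member. The value was above 0 for 32 of 35 members, against 48.8% of all genes, with a median of 0.38, and below 0 for Dhx58, Irf1 and Dtx3l. For 12 members the unadjusted p was under 0.05, against 5.38% of all genes. It was 19 members without WT_TAC 1 (1269 of 15812 genes) and 10 to 16 without any other library (610 to 1050 of all genes). The opposed signs, below 0 in WT and above 0 in Alox5ko, were seen in 26 members (74.3%) and in 17.8% of all genes. A further 7 members were above 0 in both genotypes (31.5% of all genes), Dhx58 and Irf1 were above 0 in WT alone, and 0 members were below 0 in both (31.2% of all genes). Some opposed signs rest on wild-type values near 0, such as -0.007 for Oasl2 (SE 0.165), -0.02 for Mx2 (SE 0.242) and -0.06 for Ifit3 (SE 0.167). Members below 0 in wild type numbered 22 without WT_NS 1 or WT_TAC 3, and 28 without WT_NS 2 or WT_TAC 1. The 2 TAC comparisons share no library. These genes share regulators, so the members are not independent of each other.

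**Figure D3:**
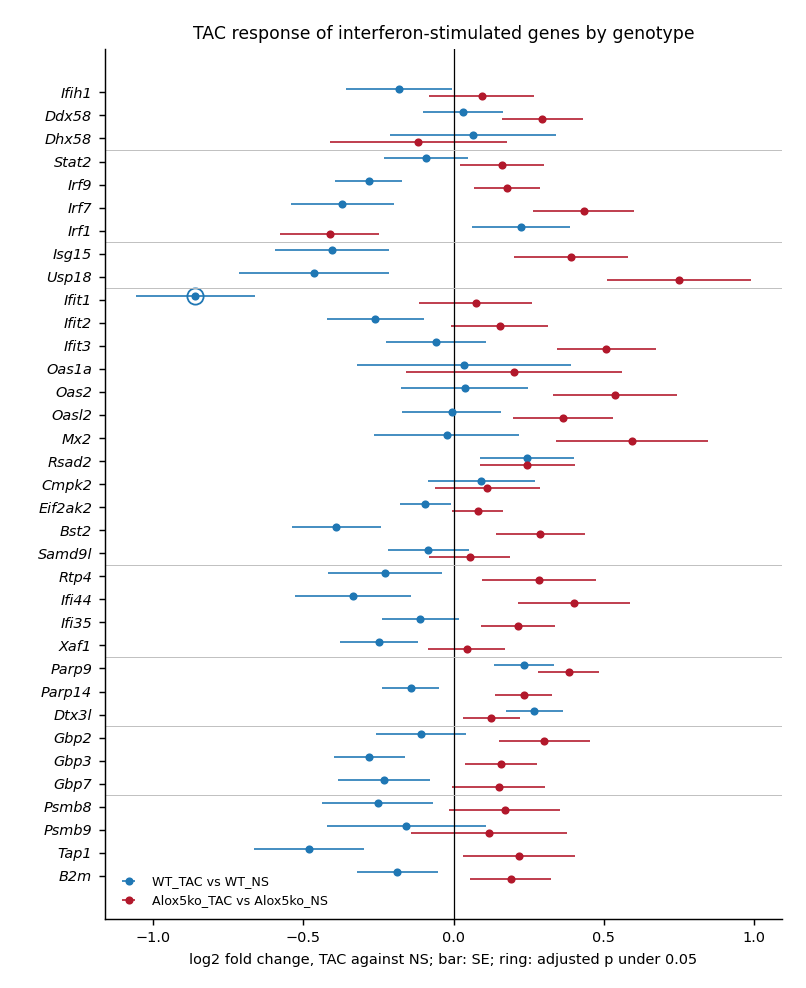
Log2 fold change of TAC against NS for each of the 35 genes, in wild type (blue) and Alox5 knockout (red), with the SE of the fit as bars and gene roles separated by grey lines. The ring marks Ifit1 in wild type, the 1 value with an adjusted p under 0.05; 26 blue points lie below 0 and 33 red points above it.

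Genotypes were then compared within treatment. In Alox5ko_NS against WT_NS, 33 of 35 members had a value below 0 (49.6% of all genes), with a median of -0.26 against 0.00, and the exceptions were Irf1 and Cmpk2. None of the 35 passed edgeR's test (0.0386% of all genes called), and none passed by DESeq2. At an unadjusted p under 0.05 there were 11 members, against 6.36% of all genes, and all were lower (3.89%). The count was 7 without Alox5ko_NS 1 (948 of 15838 genes) and 8 to 14 without any other library (792 to 1266 of all genes). The groups did not overlap for 15 members lower in Alox5ko_NS, against 7.45% of all genes, and for 0 members higher (6.14%). In Alox5ko_TAC against WT_TAC, 25 of 35 values were above 0 (48.5% of all genes) with a median of 0.11. No member passed by edgeR (0.109% of all genes called) or DESeq2, and 7 had an unadjusted p under 0.05 (8.49% of all genes). Here 5 members were higher in Alox5ko_TAC without overlap (5.77% of all genes) and 2 were lower (6.51%). These comparisons share their libraries with the TAC comparisons, so their values are the same group levels seen from another side.

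By group mean, 17 members were highest in WT_NS, 12 in Alox5ko_TAC, 5 in WT_TAC and 1, Irf1, in Alox5ko_NS. The lowest group was Alox5ko_NS for 24 members, WT_TAC for 8, Alox5ko_TAC for 2 and WT_NS for 1. The same shares over all genes were not counted, so these orders are not read as particular to the panel.

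Single libraries weigh on these values. Each gene's level in a library was set against its mean over the 12 libraries, on the scale of log2(CPM + 0.5), and the median over the 35 members was taken. It was 0.14, 0.05 and 0.09 in the WT_NS libraries, and 0.13, -0.03 and -0.23 in those of WT_TAC. It was -0.22, -0.12 and -0.10 in Alox5ko_NS, and 0.05, 0.13 and 0.05 in Alox5ko_TAC. The Alox5ko_NS and Alox5ko_TAC libraries thus did not overlap, while WT_TAC spanned most of the range of all 12. WT_TAC 1 was the highest of its group for 24 members (37.0% of all genes) and WT_TAC 3 the lowest for 24 (31.5% of all genes). Without WT_TAC 3 the median log2 fold change was -0.06 for TAC in wild type and 0.01 for Alox5ko_TAC against WT_TAC. Without WT_TAC 1 these medians were -0.21 and 0.21, and without Alox5ko_TAC 2 the second was 0.07.

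**Figure D4:**
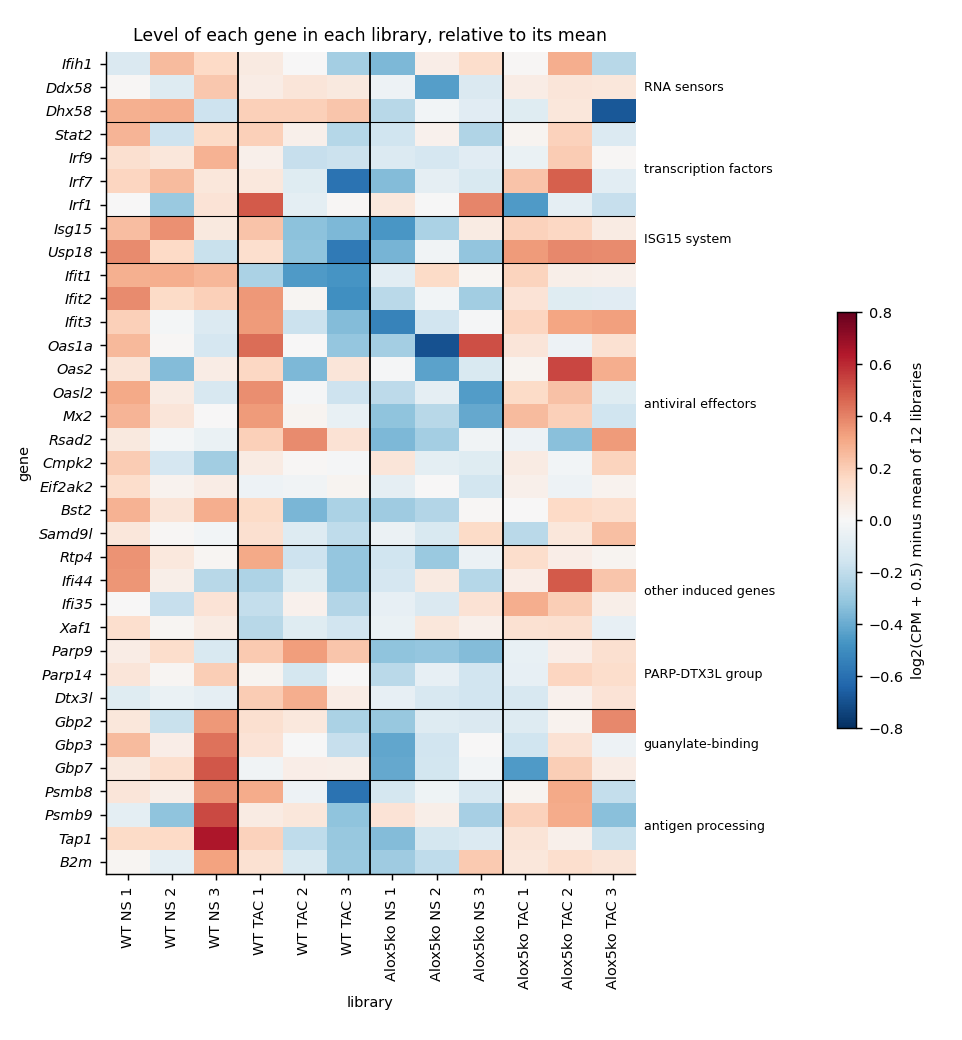
Level of each gene (rows, by role) in each library (columns) as log2(CPM + 0.5) minus the gene's mean over 12 libraries; red is above and blue below that mean. Most rows are blue in the 3 Alox5ko_NS libraries and in WT_TAC 3, whose medians over the panel are -0.22, -0.12, -0.10 and -0.23.

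The RNA sensors come first in the pathway. Ifih1 encodes MDA5, Ddx58 encodes RIG-I, and Dhx58 encodes LGP2, a regulator of both. None of the 3 passed in any comparison. Ifih1 overlapped in all 4 pairs of groups, with means from 5.36 ± 0.71 CPM in WT_TAC to 6.08 ± 0.85 CPM in WT_NS. For Ddx58 the mean was 6.95 ± 0.83 CPM in WT_NS, 7.10 ± 0.10 in WT_TAC, 5.82 ± 0.89 in Alox5ko_NS and 7.13 ± 0.11 CPM in Alox5ko_TAC (SD, n = 3 each). Its knockout groups did not overlap, with a log2 fold change of 0.30 (SE 0.134, adjusted p = 0.313). Dhx58 went the other way, with 1.09 ± 0.11 CPM in Alox5ko_NS and 1.0 ± 0.39 CPM in Alox5ko_TAC, and its Alox5ko_TAC libraries all lay under those of WT_TAC (1.47 ± 0.027 CPM).

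Among the transcription factors, Irf7, the master regulator of type I interferon genes, had one of the larger differences of response. Its level was 8.27, 8.77 and 7.76 CPM across WT_NS against 7.75, 6.78 and 4.65 CPM in WT_TAC. In the knockout it was 5.61, 6.90 and 6.63 CPM in NS and 8.62, 10.3 and 6.84 CPM in TAC. The wild-type groups just failed to overlap, separated by less than the spread within WT_TAC, while Alox5ko_TAC 3 lay within the range of Alox5ko_NS. The log2 fold change was -0.37 (SE 0.171, adjusted p = 0.397) in wild type and 0.43 (SE 0.169, adjusted p = 0.234) in the knockout, with a difference of 0.80 (SE 0.24, adjusted p = 0.629).

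Irf9, the DNA-binding partner of STAT2, was the 1 member whose groups separated in opposite directions. It was at 11.7 ± 0.85 CPM across WT_NS against 9.65 ± 0.91 CPM in WT_TAC, all WT_TAC libraries being lower. It was at 9.60 ± 0.15 CPM in Alox5ko_NS and 10.9 ± 1.1 CPM in Alox5ko_TAC, all Alox5ko_TAC libraries being higher. Over all genes, 8.81% were lower without overlap for TAC in wild type and 8.98% were higher without overlap in the knockout. The share of genes with both was not counted. The difference of response of Irf9 was 0.46 (SE 0.157) and did not pass (adjusted p = 0.753). Irf9 shares 123 exon bases with Rnf31 on the same strand, so reads there could be counted for either gene.

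Irf1, which carries a GAS in its promoter and is a classic early target of interferon gamma, ran against the panel. Its mean was 10.5 ± 1.5 CPM in WT_NS, 12.2 ± 2.8 in WT_TAC, 12.3 ± 1.9 in Alox5ko_NS and 9.22 ± 1.3 CPM in Alox5ko_TAC. All Alox5ko_TAC libraries lay below all Alox5ko_NS libraries, with a log2 fold change of -0.41 (SE 0.164, adjusted p = 0.245). Stat2, the partner of IRF9, was flat by comparison, between 9.24 ± 0.95 CPM in Alox5ko_NS and 10.8 ± 1.7 CPM in WT_NS.

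The ISG15 system held the highest TAC value of the panel in the knockout. Usp18 removes ISG15 from proteins and also blocks the type I receptor, so it is a brake on the pathway. It was at 2.54, 2.12 and 1.57 CPM across WT_NS against 2.07, 1.37 and 1.08 CPM in WT_TAC. In the knockout it was at 1.31, 1.79 and 1.38 CPM in NS and at 2.46, 2.56 and 2.54 CPM in TAC. The Alox5ko_TAC libraries were close to each other and above all libraries of Alox5ko_NS and WT_TAC, while the wild-type groups overlapped. The log2 fold change of TAC was 0.75 (SE 0.24, adjusted p = 0.134) in the knockout and -0.46 (SE 0.25, adjusted p = 0.498) in wild type. The difference of 1.21 (SE 0.347) was the largest of the 35 members and did not pass (adjusted p = 0.623).

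Usp18 (chr6:121245906-121270917, plus strand) lies on the chromosome of Alox5, 4.78 Mb away, and shares 124 exon bases with Gm44148 on the opposite strand. It had 520 counts in all, so counting error is a large part of its spread. Isg15, the modifier itself, was at 4.86 ± 0.53 CPM in WT_NS, 3.67 ± 1.0 in WT_TAC, 3.46 ± 0.74 in Alox5ko_NS and 4.51 ± 0.22 CPM in Alox5ko_TAC. Its TAC log2 fold changes were -0.41 (SE 0.19) and 0.39 (SE 0.19), with overlapping groups in both genotypes.

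Antiviral effectors form the bulk of the panel, with 12 genes. Ifit1 (chr19:34640871-34650009, plus strand) was at 2.41, 2.42 and 2.38 CPM across WT_NS against 1.50, 1.24 and 1.22 CPM in WT_TAC. It was at 1.76, 2.16 and 1.91 CPM across Alox5ko_NS against 2.21, 1.97 and 1.96 CPM in Alox5ko_TAC. All WT_TAC libraries were below those of every other group, and the knockout groups overlapped. In wild type it fell by 0.86 on the log2 scale (SE 0.198, adjusted p = 0.0461). The knockout value was 0.07 (SE 0.188, adjusted p = 0.909), and the difference of 0.93 (SE 0.274) did not pass (adjusted p = 0.623). Alox5ko_TAC was above WT_TAC by 0.63 (SE 0.202, adjusted p = 0.342).

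The call of Ifit1 stands close to its threshold. It was lost without any 1 of its 6 libraries, with adjusted p from 0.0657 to 0.153, and with DESeq2 (adjusted p = 0.056) or a fit of the 6 wild-type libraries alone (adjusted p = 0.0603). The estimate stayed between -0.96 and -0.81 as libraries were left out.

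Ifit3, its partner in RNA binding, showed another profile. It was at 15.3, 13.2 and 12.3 CPM across WT_NS against 17.1, 11.8 and 10.4 CPM in WT_TAC, which overlapped. It was at 9.08, 12 and 13.3 CPM across Alox5ko_NS against 15.1, 16.7 and 16.9 CPM in Alox5ko_TAC, which did not. The log2 fold change was -0.06 (SE 0.167, adjusted p = 0.941) in wild type and 0.51 (SE 0.165, adjusted p = 0.151) in the knockout. Without WT_TAC 1, which is in neither knockout group but enters the estimate of spread, the knockout value passed (adjusted p = 0.0453). Ifit3 has a near-identical neighbour, Ifit3b (3.44 to 5.64 CPM), and reads could be split between them, so its level is uncertain.

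In the knockout all 12 effector values of TAC were above 0, from 0.05 for Samd9l to 0.59 for the dynamin-like GTPase gene Mx2. In wild type 8 were below 0 and 4 above it, from -0.86 for Ifit1 to 0.24 for Rsad2, which encodes viperin. GENCODE M21 lists Mx2 as a polymorphic pseudogene. Its level was 0.981 ± 0.096 CPM in Alox5ko_NS and 1.48 ± 0.29 CPM in Alox5ko_TAC, with no overlap. The 2',5'-oligoadenylate synthetase gene Oas2 was at 2.94 ± 0.50 and 4.27 ± 0.84 CPM, also with no overlap. Neither passed, with adjusted p = 0.274 for Mx2 and 0.224 for Oas2.

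Bst2, which encodes tetherin, was at 7.66 ± 0.57 CPM in WT_NS, 5.86 ± 1.3 in WT_TAC, 5.74 ± 0.70 in Alox5ko_NS and 6.99 ± 0.44 CPM in Alox5ko_TAC. Its difference of response was 0.68 (SE 0.21, adjusted p = 0.636). Eif2ak2, the gene of the RNA-dependent kinase PKR, varied least, between 20.4 ± 1.0 CPM in Alox5ko_NS and 22.6 ± 0.93 CPM in WT_NS. Oas1a varied most, from 0.597 to 2.05 CPM within the Alox5ko_NS group alone, and has a close copy, Oas1g. Rsad2 was among the few members higher in all WT_TAC libraries (8.51 ± 0.87 CPM) than in WT_NS (7.2 ± 0.35 CPM), with a log2 fold change of 0.24 (SE 0.156, adjusted p = 0.591). Cmpk2, its neighbour on chromosome 12 and a nucleotide kinase gene, stayed between means of 2.81 ± 0.58 CPM in WT_NS and 3.12 ± 0.26 CPM in Alox5ko_TAC.

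Ifit2, an RNA-binding relative of Ifit1, was at 12.1 ± 1.1 CPM in WT_NS and 8.94 ± 0.90 CPM in Alox5ko_NS, with no overlap and a log2 fold change of -0.43 (SE 0.161, adjusted p = 0.678). Oasl2, a relative of the Oas genes, had its lowest mean in Alox5ko_NS, at 5.39 ± 0.76 CPM, against 6.84 to 6.94 CPM in the other 3 groups, whose ranges it overlapped. Samd9l, an inhibitor of translation, was even, with means from 8.23 ± 1.0 CPM in WT_TAC to 8.88 ± 1.5 CPM in Alox5ko_TAC.

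Of the other induced genes, Ifi44 had the third-smallest p in Alox5ko_TAC against WT_TAC. It was at 4.45, 3.5 and 2.83 CPM across WT_NS against 2.77, 3.13 and 2.63 CPM in WT_TAC. In the knockout it was at 3.03, 3.58 and 2.80 CPM in NS and at 3.52, 4.94 and 4.02 CPM in TAC. The TAC groups did not overlap between genotypes, with a log2 fold change of 0.54 (SE 0.191, adjusted p = 0.386). Ifi35 and Xaf1, a promoter of apoptosis, were likewise higher in all Alox5ko_TAC than in all WT_TAC libraries, at 0.32 (SE 0.126) and 0.24 (SE 0.131), and did not pass. Ifi35 shares 290 exon bases with Gm11626 on the opposite strand. The chaperone gene Rtp4 was at 2.75 ± 0.28 CPM in Alox5ko_NS and 3.34 ± 0.16 CPM in Alox5ko_TAC.

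Parp9 and the ubiquitin ligase gene Dtx3l encode partners in 1 complex and are neighbours in head-to-head orientation on chromosome 16. Parp9 was at 14.7, 15.6 and 12.9 CPM across WT_NS against 16.4, 17.9 and 16.5 CPM in WT_TAC. In the knockout it was at 11.1, 11.3 and 11 CPM in NS and at 13.5, 14.6 and 15.5 CPM in TAC. TAC groups were above NS groups in both genotypes, and knockout groups below wild-type groups in both treatments, all without overlap. The TAC log2 fold change was 0.23 (SE 0.0985, adjusted p = 0.335) in wild type and 0.38 (SE 0.10, adjusted p = 0.0653) in the knockout. In NS the genotypes differed by -0.37 (SE 0.10, adjusted p = 0.439), the smallest p of the panel in that comparison.

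Dtx3l was at 16.4, 16.9 and 16.7 CPM across WT_NS against 20.3, 21.7 and 18.3 CPM in WT_TAC. It was at 16.8, 16.1 and 15.8 CPM across Alox5ko_NS against 16.1, 18.1 and 19.0 CPM in Alox5ko_TAC. All WT_TAC libraries were above WT_NS, and the knockout groups overlapped. Its wild-type log2 fold change was 0.27 (SE 0.0951, adjusted p = 0.225). Exons of Parp9 and Dtx3l share 458 bases on opposite strands, and whether counting used strand is not given in the sources used here, so their reads there cannot be told apart. Parp14, an ADP-ribosyltransferase gene nearby, followed the rest of the panel with -0.14 in wild type and 0.23 in the knockout.

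**Figure D5:**
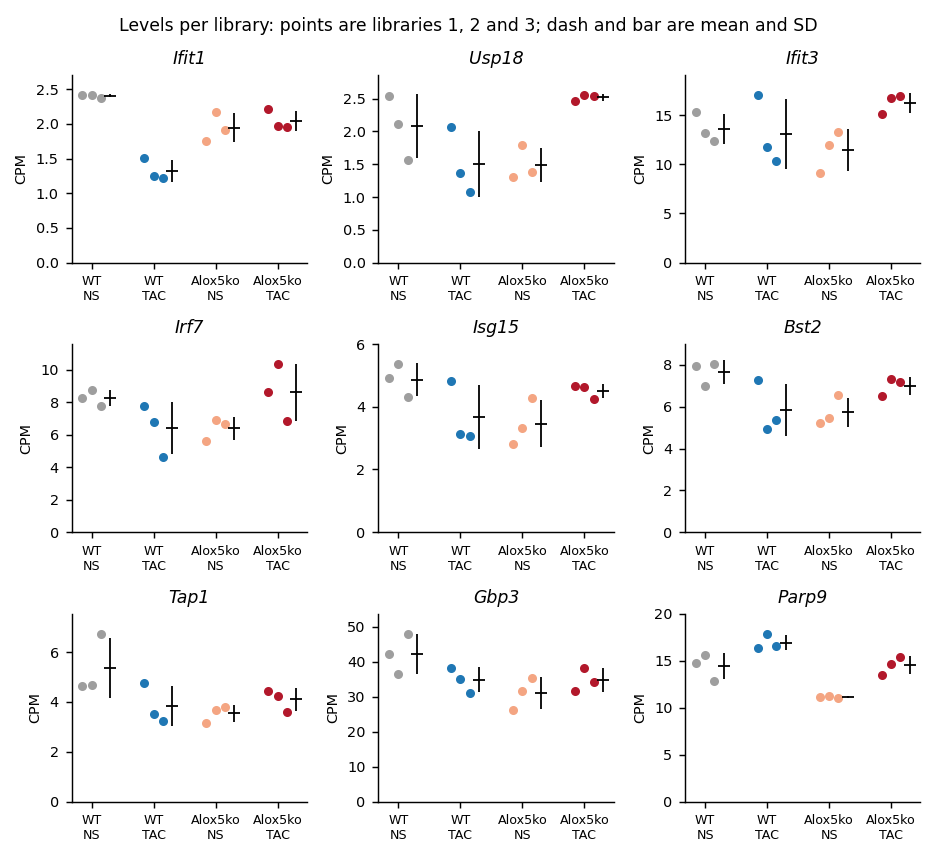
CPM of 9 members in each library (points, libraries 1 to 3 of each group from left to right) with the mean and SD of 3 libraries; every axis starts at 0. Ifit1 is lowest in the 3 WT_TAC libraries, at 1.22 to 1.50 CPM, and Usp18 is at 2.46 to 2.56 CPM in the 3 Alox5ko_TAC libraries.

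Guanylate-binding proteins are large GTPases that act on the membranes of intracellular pathogens and are induced chiefly by interferon gamma. Gbp3 was at 42.2, 36.6 and 48.0 CPM across WT_NS against 38.2, 35.2 and 31.1 CPM in WT_TAC. It was at 26.4, 31.7 and 35.4 CPM across Alox5ko_NS against 31.6, 38.3 and 34.3 CPM in Alox5ko_TAC. WT_NS was above all libraries of Alox5ko_NS, and the TAC groups overlapped their NS groups. The genotype difference in NS was -0.44 (SE 0.119, adjusted p = 0.439). Gbp7 had -0.45 (SE 0.154, adjusted p = 0.633) and Gbp2 -0.29 (SE 0.151, adjusted p = 0.802) in the same comparison. The Gbp genes are close paralogs in 1 cluster on chromosome 3, so reads could be split between them, and Gbp7 shares 637 exon bases with Gm43802 on its own strand.

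Antigen processing had 4 members: Psmb8 and Psmb9, subunits of the immunoproteasome, Tap1, which forms the peptide transporter with Tap2, and B2m. Tap1 was at 4.64, 4.67 and 6.73 CPM across WT_NS against 4.74, 3.52 and 3.24 CPM in WT_TAC. It was at 3.14, 3.69 and 3.78 CPM across Alox5ko_NS against 4.46, 4.25 and 3.59 CPM in Alox5ko_TAC. WT_NS 3 was the highest of all 12 libraries, and WT_NS lay above Alox5ko_NS without overlap. The log2 fold change was -0.48 (SE 0.183, adjusted p = 0.268) for TAC in wild type and -0.60 (SE 0.182, adjusted p = 0.578) for genotype in NS. B2m, with the most counts of the panel, was at 41.9 ± 6.4 CPM in WT_NS, 36.8 ± 5.5 in WT_TAC, 37.1 ± 7.2 in Alox5ko_NS and 42.3 ± 0.66 CPM in Alox5ko_TAC, and its groups overlapped in all comparisons. Psmb8 was at 8.95 ± 1.1 CPM in WT_NS and 7.32 ± 0.32 CPM in Alox5ko_NS, which did not overlap, and its WT_TAC libraries spread from 5.07 to 9.82 CPM. Psmb9, with means of 2.10 to 2.35 CPM, overlapped in every comparison. Tap1 and Psmb9 share 212 exon bases on opposite strands.

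Genes of the pathway outside the panel were read the same way. Of 49 other interferon-induced genes tested, 0 passed in any comparison, where 0.0% to 1.34% of all genes were called. Their median log2 fold change was -0.12 for TAC in wild type, with 33 values below 0 (49.1% of all genes). In the knockout it was 0.16, with 35 above 0 (49.3%). The difference of response was above 0 for 41 of 49 (48.8% of all genes) and had a median of 0.24. Cxcl9, a chemokine gene induced by interferon gamma, had the smallest p in wild type, at -0.57 (SE 0.188, adjusted p = 0.183). Znfx1, a helicase gene, had 0.30 (SE 0.0848, adjusted p = 0.0949) in the knockout.

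Among 14 further interferon-induced GTPase genes, 0 passed, where 0.0% to 1.34% of all genes were called in a comparison. Their median was -0.34 for TAC in wild type, with 12 values below 0 (49.1% of all genes), and -0.00 in the knockout, with 7 on each side. Genotype in NS gave a median of -0.30. Igtp, which acts at the vacuoles of parasites, was at 9.59, 8.60 and 10.8 CPM across WT_NS against 6.76, 7.63 and 6.11 CPM in WT_TAC, with no overlap and a log2 fold change of -0.50 (SE 0.154, adjusted p = 0.156). Of 23 further genes of MHC class I and II, 0 passed, with medians of -0.26 for TAC in wild type and 0.11 in the knockout. H2-Ab1, a class II chain of antigen-presenting cells, had -0.44 (SE 0.147, adjusted p = 0.217) in wild type.

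Marker genes of other cell types were summed in each library. The summed level of 10 macrophage and monocyte markers was 139, 139 and 123 CPM across WT_NS against 136, 103 and 97.1 CPM in WT_TAC. The knockout sums were 114, 102 and 145 CPM across Alox5ko_NS against 124, 149 and 137 CPM in Alox5ko_TAC. WT_TAC 3 was lowest of the 12 both in these markers and in the median of the panel. Next lowest was Alox5ko_NS 2 in these markers and Alox5ko_NS 1 in the median of the panel. None of the 9 tested macrophage and monocyte markers was called in any comparison (0.0% to 1.34% of all genes), and none of the 10 was at 0 in all libraries. Of the 9, 7 were below 0 for TAC in wild type (49.1% of all genes), with a median of -0.07. For TAC in the knockout 9 were above 0 (49.3%), with a median of 0.16. The difference of response was above 0 for 8 (48.8%), with a median of 0.25. Endothelial markers summed to between 469 and 503 CPM across WT_NS, 499 and 574 across WT_TAC, 357 and 469 across Alox5ko_NS, and 461 and 513 across Alox5ko_TAC. Fibroblast markers summed to between 249 and 292, 278 and 485, 204 and 227, and 256 and 314 CPM in the same order, with the 485 CPM in WT_TAC 1. Smooth muscle and pericyte markers summed to between 776 and 805, 683 and 874, 547 and 677, and 580 and 683 CPM in that order, so that all 6 knockout libraries were below all WT_NS libraries. Alox5ko_NS thus lay below WT_NS without overlap in fibroblast and smooth muscle markers, and met it at 469 CPM in endothelial markers. In Alox5ko_NS 1, 2 and 3 the smooth muscle and pericyte sums were 677, 580 and 547 CPM. Endothelial sums were 441, 469 and 357 CPM, and fibroblast sums 227, 204 and 204 CPM. The panel medians of these libraries were -0.22, -0.12 and -0.10. Alox5ko_NS 1 was lowest of its group in the panel and highest in smooth muscle and fibroblast markers. In endothelial and in macrophage and monocyte markers it lay between Alox5ko_NS 2 and Alox5ko_NS 3. For genotype in NS the median log2 fold change was -0.52 over smooth muscle and pericyte markers, with 6 of 6 values below 0. It was -0.25 over endothelial markers, with 6 of 7 below 0, and -0.11 over fibroblast markers, with 4 of 6 below 0. Over all genes 49.6% were below 0. An unadjusted p under 0.05 was met by 5 of 6, 5 of 7 and 1 of 6 of these markers (6.36% of all genes). After adjustment edgeR called 0 of them (0.0386% of all genes). For TAC in the knockout, 4 of 6, 7 of 7 and 5 of 6 in the same order were above 0 (49.3% of all genes). In wild type 4 of 6, 2 of 7 and 0 of 6 were below 0 (49.1%). The difference of response was above 0 for 4 of 6, 7 of 7 and 2 of 6 (48.8%). The 4 atrial markers summed to between 16.6 and 73.4, 6.86 and 58.9, 1.35 and 34.5, and 1.65 and 92.1 CPM across WT_NS, WT_TAC, Alox5ko_NS and Alox5ko_TAC, with overlap among all groups. The median log2 fold change of the 3 tested was -0.87 for TAC in wild type, 1.49 for TAC in the knockout, 0.39 for genotype in TAC and -1.66 for genotype in NS, with 0 called. Lymphocyte markers were near the detection limit, at 0.467 to 1.93 CPM for T and NK cells and 0.137 to 0.785 CPM for B cells, and the neutrophil marker Ly6g had 0 counts in all 12 libraries. The part of these cell types in the levels of the panel was not tested.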

How the data were processed

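Polyadenylated RNA of left ventricle was sequenced from directional libraries as read pairs, per the labels' protocols. The submitters' processing notes name HISAT2, DESeq2 and the builds mm10 and GRCh38, without their roles; the counting program, annotation and strand setting are not given in the sources used here. The authors deposited raw counts per gene and RPKM; counts and gene lengths gave back all 336792 RPKM values compared within 0.1%. Positions are those deposited, and 31 of the 35 spans equal GENCODE M21 (GRCm38).

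Counts were tested with edgeR 4.0.16 in R 4.3.3: filterByExpr (minimum count 10, total 15), TMM scaling, and a robust quasi-likelihood fit with 1 coefficient per group on all 12 libraries. P-values were adjusted by Benjamini-Hochberg over 15542 genes, and called means an adjusted p under 0.05. An exact permutation test of 3 against 3 cannot go below 0.1, so genes were tested by the model alone. Depths of 20889431 to 27311196 counts limit the low genes. CPM of genes use the TMM factors (0.945 to 1.035). Replicate libraries differed by more than sampling noise (chi-square per gene 5.24 to 30.9). The fit was tested on simulated data.

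Alternatives were DESeq2 1.42.0, RLE scaling, no filter, the 6 compared libraries alone, a replicate block and each library left out. All 35 members are named by role; values per library are given for called members and the 3 with the smallest p in each comparison, and for other lists up to 3 genes. The members and lists were chosen with earlier results of these data known. The values of 1 pathway gene are not reported here.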

Additional observations from a re-analysis of the deposited data

How the results depend on the processing

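The count of members called for TAC in wild type, 1 (Ifit1), was 0 with DESeq2, with only the 6 libraries compared and with a replicate block. For TAC in the knockout it was 0, and 1 with DESeq2 (Parp9) or 2 without the low-count filter (Irf1 and Ifit3). Without that filter it was also 2 for Alox5ko_NS against WT_NS (Gbp3 and Gbp7) and 1 for the difference of response (Irf7, adjusted p = 0.0382 by edgeR), each against 0. Without the filter 28070 genes were tested. Of these, 756 were called for TAC in the knockout, 116 for Alox5ko_NS against WT_NS and 83 for the difference. DESeq2 called 407 of 15542 genes for TAC in the knockout. Leaving out 1 library gave 0 to 1 members in both TAC comparisons and 0 to 0 in the other 3. The medians of the panel kept their sign with 1 library left out: -0.21 to -0.06, 0.18 to 0.26, 0.01 to 0.21 and -0.31 to -0.23 for WT TAC, knockout TAC, genotype in TAC and genotype in NS. Ifit1 ran from -0.96 to -0.81 and kept its call in 5 of 17 alternatives, with adjusted p from 0.036 to 0.153.

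Over all genes, WT TAC gave 119 calls, 285 with DESeq2, 538 without the filter, 215 from the 6 libraries alone and 17 to 182 with 1 library left out. Knockout TAC gave 209, 407 with DESeq2, 756 without the filter and 60 to 379. Genotype in TAC gave 17, 59 with DESeq2, 252 without the filter, 39 from the 6 libraries and 10 to 28. Genotype in NS gave 6, 24 with DESeq2, 116 without the filter, 18 from the 6 libraries and 2 to 7. The difference gave 0, 1 with DESeq2, 83 without the filter and 0 to 1. The cause was not tested. Same-number correlations of deviations were -0.121 to 0.0916, with none over 0.1, so the numbers were not taken to pair the libraries. Of 24 best matches 14 had the same number, where 8 would be met by chance, a hint from the data and not from the design. Between WT_NS and WT_TAC the same-number correlations were 0.0732, 0.0916 and 0.0440, each the best match of both its libraries. Between Alox5ko_NS and Alox5ko_TAC they were -0.105, 0.0813 and 0.0570. The replicate block moved the count of calls to 110, 170, 21, 6 and 0, and Ifit1 to an adjusted p of 0.0625.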

Other observations

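Genes that brake or start interferon signalling were measured beside the panel. Nlrc3, an inhibitor of nucleic acid sensing, was at 1.14, 0.864 and 0.583 CPM across WT_NS against 4.41, 4.16 and 2.58 CPM in WT_TAC, and rose by 2.11 on the log2 scale (SE 0.28, edgeR adjusted p = 0.00287). In the knockout it was at 1.16, 1.04 and 1.16 CPM across NS against 3.95, 2.42 and 4.21 CPM in TAC (log2 fold change 1.65, SE 0.264, adjusted p = 0.00522). It was the 1 called gene of 9 tested brakes, and its difference of response was -0.46 (SE 0.395). Of 14 tested genes of nucleic acid sensing and 8 of other interferon regulatory factors, 0 were called in any comparison. Over all genes, 0.0% to 1.34% were called in a comparison.

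Psmb10, the immunoproteasome subunit that works with those of Psmb8 and Psmb9, had the opposite sign in wild type. It was at 23.7, 27.0 and 22.3 CPM across WT_NS against 47.0, 33.6 and 43.7 CPM in WT_TAC, with no overlap (0.77, SE 0.169, adjusted p = 0.0583). Gbp6 was at 34.8, 45.9 and 40.3 CPM in WT_TAC and 67.8, 58.7 and 60.5 CPM in Alox5ko_TAC, with no overlap (0.63, SE 0.176, adjusted p = 0.317). Its Alox5ko_NS libraries were at 37.6, 44.8 and 66.8 CPM, so the third of them lay within the range of Alox5ko_TAC.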
